A study of Mus musculus with 27 samples.

Results

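The Hox genes of the 4 mouse clusters were followed here across the developing and the mutant esophagus. Members were all genes whose probe name on the array was Hoxa, Hoxb, Hoxc or Hoxd followed by a number, which gave 38 genes on 50 probes among the 28146 genes of the array. The Hoxa cluster was represented by 11 genes, Hoxb by 10, Hoxc by 8 and Hoxd by 9. Of the 39 Hox genes listed by RefSeq, Hoxc11 was not matched to a probe. In the mm9 coordinates of the array design the Hoxa probes lie on chromosome 6, the Hoxb probes on 11, the Hoxc probes on 15 and the Hoxd probes on 2, and which exon or UTR each probe meets was not analysed here.

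Hox genes encode homeodomain transcription factors that give cells their place along the head-to-tail axis of the embryo. They sit in clusters, and their order on the chromosome follows the order in which they are switched on along the body, with the 3′ (low-numbered, anterior) genes used in the hindbrain, pharynx and foregut and the 5′ (high-numbered, posterior) genes in the trunk, hindgut, limbs and genital tubercle. TALE proteins of the Pbx, Meis and Pknox families bind DNA together with Hox proteins, retinoic acid induces the 3′ genes, and Polycomb and Trithorax complexes keep the genes silent or active.

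The study asked how gene expression changes as a simple columnar lining becomes a keratinized stratified squamous epithelium, and what the Nrf2/Keap1 pathway adds. Nrf2 (gene Nfe2l2) is a transcription factor of antioxidant and detoxification genes and Keap1 is the protein that holds it inactive. Each of 27 two-colour arrays compared 1 esophageal RNA, in the Cy5 channel, with a reference RNA pooled from mouse cell lines, in the Cy3 channel, without dye swaps. There were 9 groups of 3 arrays, and each RNA was taken from a single esophagus, so that p-values measure the spread between mice within groups. That spread is pooled over all groups fitted together, so it can take in arrays outside the pair compared.

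Wild-type C57BL/6J mice gave whole esophagus at embryonic days 11.5 and 15.5 (E11.5, E15.5), at birth (P0) and at postnatal day 7 (P7). At P7, whole esophagus was also taken from Nrf2-/-, Keap1-/- and Nrf2-/-Keap1-/- mice on a C57BL background, whose mutations are in the germline and so in every tissue of the wall. Adult mice 8 weeks old, wild-type or Nrf2-/-, gave esophageal epithelium alone, so that age and tissue cannot be told apart between P7 and adult. Values below are log2 ratios of Cy5 to Cy3, the mean over a gene's probes, and a value of 1 is a doubling over the reference RNA. They compare a gene between samples and not with another gene. In bulk tissue, fewer cells of a type and less RNA per cell cannot be told apart.

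A few arrays stood apart before any comparison was made. Pearson's r over the ratios of 19704 genes was 0.958 and 0.928 between the first array of E15.5 and the E11.5 arrays 1 and 2, but 0.803 and 0.812 between it and its own group. For the array given as E11.5 replicate 3, r was 0.831 and 0.774 within its group and 0.981 and 0.976 with E15.5 arrays 2 and 3. Both go against their labels, so embryonic results of the Hox genes are given with and without them. Those of other listed genes and of markers are given with all arrays only. The targeted gene Nfe2l2 was at -3.92, -3.92 and -3.82 in Nrf2-/- at P7 and at -0.23, 0.00 and -0.55 in wild type. Keap1 was at -0.27, 0.22 and 0.64 in Keap1-/- and at 0.54, 1.00 and 0.42 in wild type, so that these groups overlapped. In Nrf2-/-Keap1-/- it was at -0.50, -0.32 and -0.19, below every wild-type array. Whether its probes lie in the deleted part was not analysed here. The Keap1-/- arrays were the only ones on their slide and in their scan, so genotype and scan cannot be told apart. The wild-type P7 arrays also had a slide to themselves. Among the pairs of groups compared, only E11.5 and E15.5 shared a slide, and in the others slide and group cannot be told apart. In adults, 2 of the 3 wild-type arrays were scanned with the younger samples and the third later with 2 Nrf2-/- arrays, while the remaining Nrf2-/- array had a scan of its own. Stomach markers, 6 genes, averaged 3.66, 1.52 and -0.05 on the wild-type P7 arrays, -0.05 to 0.04 at E11.5 and 0.07 to 0.35 in wild-type adults. Their part in the comparisons that use the P7 arrays was not tested.

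The promoters of 3 members are printed because these genes carry some of the largest changes described here: Hoxa2, which patterns the hindbrain and the second pharyngeal arch, and the neighbours Hoxd4 and Hoxd8. Each line is the 250 bases before the start of the gene in RefSeq's GRCm38.p6, read 5′ to 3′ on the gene's strand: Hoxa2 at chr6:52164832-52165081 on the minus strand, Hoxd4 at chr2:74721728-74721977 and Hoxd8 at chr2:74704365-74704614 on the plus strand. Capitals mark letters found on either strand: TGATNNAT, a Pbx-Hox site, in Hoxa2; AGGTCA, the half-site of nuclear receptors such as the retinoic acid receptors, in Hoxd4 and Hoxd8; and TATAAA, the TATA box, in Hoxd4.
Hoxa2: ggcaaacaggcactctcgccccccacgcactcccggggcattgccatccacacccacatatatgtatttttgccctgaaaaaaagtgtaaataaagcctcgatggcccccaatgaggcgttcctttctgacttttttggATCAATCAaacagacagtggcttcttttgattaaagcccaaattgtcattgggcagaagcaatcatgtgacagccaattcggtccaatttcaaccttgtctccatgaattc
Hoxd4: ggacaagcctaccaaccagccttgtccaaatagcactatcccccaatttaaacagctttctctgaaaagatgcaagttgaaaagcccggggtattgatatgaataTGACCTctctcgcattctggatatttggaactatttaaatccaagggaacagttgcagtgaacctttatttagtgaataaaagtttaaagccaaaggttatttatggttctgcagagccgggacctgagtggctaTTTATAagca
Hoxd8: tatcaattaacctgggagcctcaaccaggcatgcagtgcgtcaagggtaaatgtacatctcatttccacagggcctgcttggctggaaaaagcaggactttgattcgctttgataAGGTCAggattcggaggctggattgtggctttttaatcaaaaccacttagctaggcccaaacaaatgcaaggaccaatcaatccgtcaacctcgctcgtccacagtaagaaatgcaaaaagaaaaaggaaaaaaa

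RefSeq's promoter table held 22 of the 38 members. AGGTCA stood in 6 of them (27.3%; Hoxb4, Hoxc4, Hoxd3, Hoxd4, Hoxd8 and Hoxd10) and in 14% of all 32851 promoters of that length. TGATNNAT stood in 4 (18.2%; Hoxa2, Hoxb1, Hoxb8 and Hoxd11) against 7.68% of all promoters, and TATAAA in 4 (Hoxa10, Hoxb8, Hoxd4 and Hoxd13) against 12.4%. TGACNNNGC, the core of the antioxidant response element that Nrf2 binds, stood in 1 member, Hoxa6, and in 10.2% of all promoters. TAATTA, the homeodomain core, stood in 1 (Hoxd11) and in 4.84% of all. The member promoters had a median GC content of 59.2%, against 52.4% over all, and a median observed-to-expected CpG ratio of 0.757 against 0.373. These are letters in a window and not sites shown to be bound.

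Members of paralog groups 10 to 13 were seldom above background in the esophagus, and most of the lower-numbered members were above it on nearly all arrays. A spot counted as above background where Feature Extraction found its Cy5 signal well above the local background. This mark did not always follow the Cy5 signal scaled between arrays. Hoxa11 was above background on 3 Nrf2-/- adult arrays at a mean log2 signal of 6.67. On the wild-type adult arrays it was so on 0, at a mean of 7.09. The arrays were read by different versions of Feature Extraction, and their part in the mark was not tested. Of the 15 members in paralog groups 1 to 5, 10 were above background on all 27 arrays, 2 on none and 3 on some, with a median of 27 arrays. Of the 12 members of groups 6 to 9, 6 were above background on all arrays and 6 on some, with a median of 25. Of the 11 members of groups 10 to 13, none was above background on all arrays, 5 on none and 6 on some, with a median of 1 array. In the Cy3 channel the reference RNA was above background on all 27 arrays for 11 of 15, 9 of 12 and 6 of 11 members of these 3 sets, so the smallest share in the reference too was that of groups 10 to 13.

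**Figure D1:**
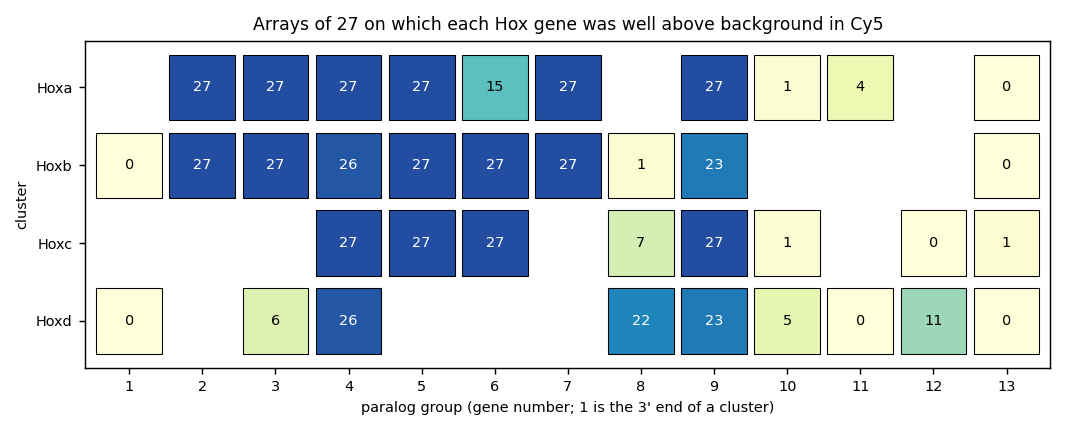
Number of arrays, of the 27, on which each of 37 Hox genes was well above background in Cy5, by cluster and paralog group. Genes of groups 1 to 9 mostly reached all or nearly all arrays, and genes of groups 10 to 13 mostly reached 0 or 1.

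By cluster, 7 of 11 Hoxa genes, 5 of 10 Hoxb genes, 4 of 8 Hoxc genes and 0 of 9 Hoxd genes were above background on all 27 arrays. The 7 members above background on no array were Hoxa13, Hoxb1, Hoxb13, Hoxc12, Hoxd1, Hoxd11 and Hoxd13. Hoxa13 and Hoxd13 are the genes of digits, hindgut and genital tubercle, and Hoxb13 is that of the prostate. Hoxb1, which specifies a hindbrain segment, Hoxd1 and Hoxd13 were above background in neither channel on any array, so their probes gave no information on either RNA. Hoxb13 was above background in the reference on all 27 arrays and in the esophagus on 0.

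Hoxa10, Hoxb8, Hoxc10 and Hoxc13 were each above background on 1 array. For Hoxa10 and Hoxc10 that array was E11.5 replicate 2. On it Hoxa10 was at -1.73, against -2.46 and -3.16 on the other E11.5 arrays, and Hoxa11, a gene of the forelimb and kidney, was at -1.83 against -3.27 and -4.03. Hoxc9 was at -2.76 there against -4.89 and -5.00, and Hoxb9 at -1.38 against -2.40 and -2.79. Hoxa9 went the other way, at 0.24 against 1.41 and 1.42. The same array had the highest median Cy3 intensity of the 27, at 385.7. Its part in these values was not tested.

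**Figure D2:**
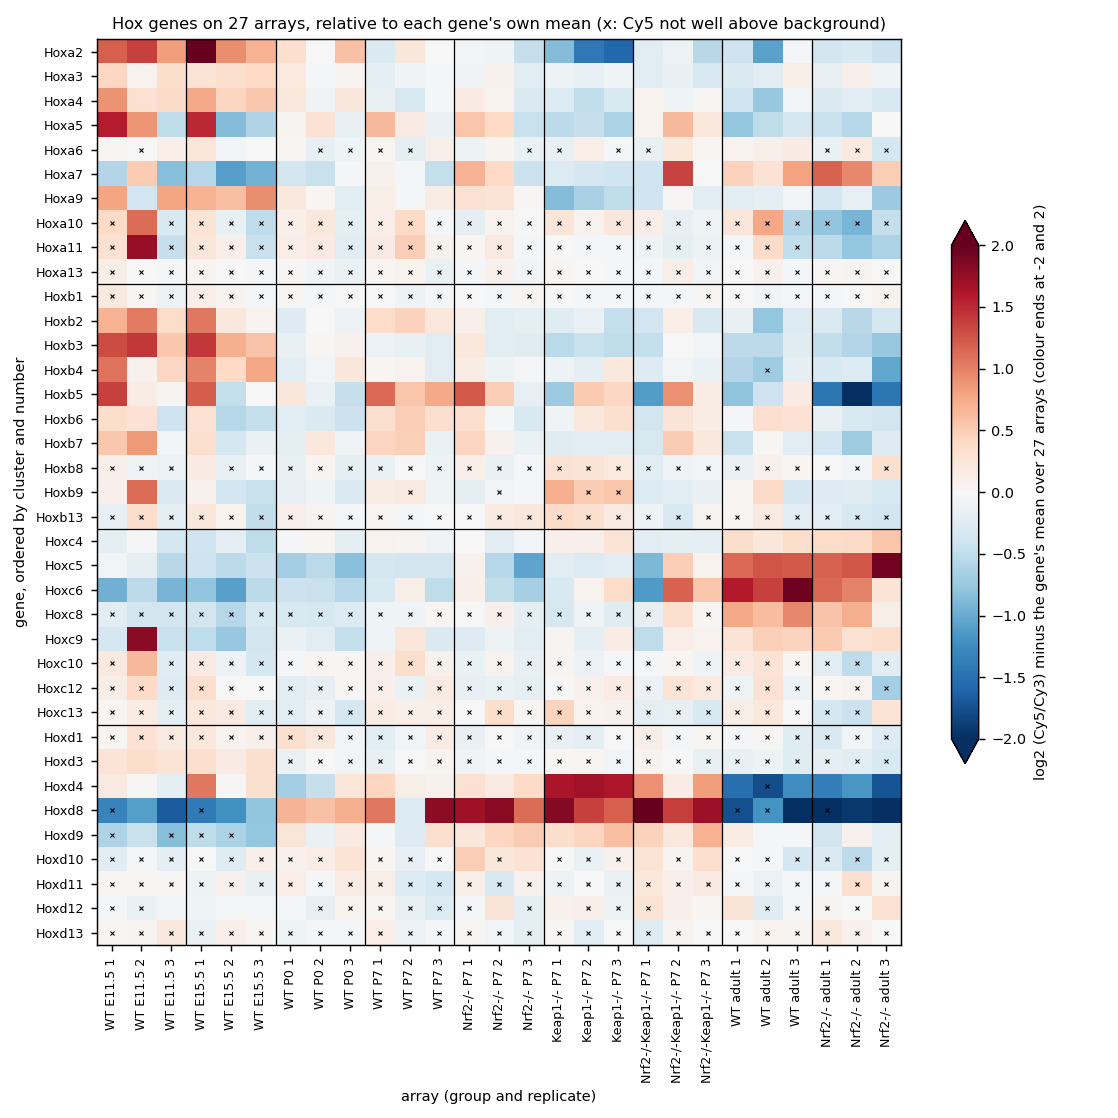
Log2 ratio of 37 Hox genes (rows, by cluster and number) on each of the 27 arrays (columns, by group and replicate) minus the gene's mean over all arrays, with colours ending at -2 and 2; a cross marks a spot not well above background in Cy5. Hoxd8 is low in embryos and adults, Hoxd4 is low in adults, and Hoxa10, Hoxa11 and Hoxc9 stand out on E11.5 replicate 2.

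The spread of group means over the 9 groups differed among members. It was widest for Hoxd8, at 3.80, and Hoxd13 had the narrowest of the Hoxd cluster at 0.18. Hoxd4 spread over 3.16, but over 2.14 without the Keap1-/- arrays, whose reference channel differed as described below. Hoxa2 likewise spread over 2.52 with them and 1.73 without, and Hoxa13 had the narrowest spread of its cluster at 0.08. Hoxb5, a gene active in the neural crest that forms the enteric nervous system, spread over 2.50, and Hoxb1 over 0.10. Hoxc6 spread over 2.44 and Hoxc12 over 0.30. The narrowest member of each cluster was above background in Cy5 on no array.

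In the wild-type series from E11.5 to P7, Hoxd8 and Hoxd9 rose between E15.5 and P0 while the anterior genes Hoxb3, Hoxa2 and Hoxa4 fell between E11.5 and P7. Of 24 members tested (well above background on at least 3 of the 12 arrays), 7 changed over the 4 ages at an adjusted p of 0.05 or lower (29.2%), by limma with Benjamini-Hochberg adjustment over all genes tested. The share called among all 19704 genes was 30%. The 7 were Hoxa2, Hoxa3, Hoxa4, Hoxb3, Hoxd3, Hoxd8 and Hoxd9.

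With all arrays, the single step with most calls was that from E15.5 to P0, where 4 of 24 members were called (16.7%), 2 higher and 2 lower, against 19.7% of all genes, 11.3% higher and 8.42% lower. Without both arrays that go against their labels, this step held 3 calls and the one before it, E11.5 to E15.5, held 7. For all arrays the median change of the members was -0.10 and that of all genes -0.01. Hoxd8 was at -1.91, -1.70 and -1.28 at E15.5 and at 0.18, 0.10 and 0.23 at P0. Every P0 array lay above every E15.5 array, and limma gave a rise of 1.80 ± 0.41 (SE, adjusted p = 0.0125). Its neighbour Hoxd9, at -0.59, -0.72 and -0.87 and then at 0.16, -0.21 and 0.09, rose by 0.74 ± 0.17 (adjusted p = 0.0141).

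Hoxd3, which shapes the first cervical vertebrae, moved against them. It was at 0.33, 0.18 and 0.33 at E15.5, above background on all 3 arrays, and at -0.12, 0.00 and -0.04 at P0, above background on none. Its difference was -0.33 ± 0.10 (limma adjusted p = 0.0340), and with P0 below background the Cy5 signal of its brighter probe was at least 1.295-fold higher at E15.5. Such bounds are of Cy5 alone, so they can exceed the change of the ratio and are open to dye bias, and they set the mean of the bright group against the lowest signal counted as above background, or the dim probe's own signal where that was higher. Of the 12 arrays Hoxd3 was above background on the 6 embryonic ones alone, so it was tested only through the groups where it was high, which favours a call. Hoxb3 was at 1.88, 1.17 and 1.03 and then at 0.30, 0.48 and 0.54, without overlap, and its difference was -0.92 ± 0.25 (limma adjusted p = 0.0270). The probes of Hoxb3 did not move alike: the mean of one fell by 1.70 and that of the other by 0.14. Hoxb2 has a probe on the strand of the cluster and one on the opposite strand in the array's coordinates. It was not called from their mean, but the probe on the cluster's strand differed by -0.95 ± 0.22 in this step (adjusted p = 0.0133).

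Between E11.5 and P7, 8 of 24 members were called (33.3%), 3 higher and 5 lower at P7, against 30.2% of all genes, 16.8% higher and 13.4% lower. The median change was -0.20 among members and -0.01 among all genes. The stomach markers given above were high on 2 of the 3 P7 arrays. Hoxd8 went from -1.84, -1.59 and -2.16 at E11.5 to 0.56, -0.78 and 1.29 at P7, a rise of 2.22 ± 0.41 (limma adjusted p = 0.00308). The P7 arrays were the most spread of any group for Hoxd8, with replicate 2 the lowest, and they still lay above all E11.5 arrays. Hoxd9 was at -0.71, -0.53 and -0.93 and then at -0.13, -0.35 and 0.24, and rose by 0.64 ± 0.17 (adjusted p = 0.0183). Hoxc6 was at -2.19, -1.77 and -2.17 and then at -1.55, -1.12 and -1.75, and rose by 0.57 ± 0.19 (adjusted p = 0.0446). Its highest E11.5 array lay just under its lowest P7 array, and Hoxc6 was called under 8 of 22 alternatives.

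With all arrays, the 5 that fell were of paralog groups 2 to 4, but not all tested members of these groups were called. Hoxc4 went from a mean of 0.07 at E11.5 to 0.27 at P7 and Hoxd4 from 0.29 to 0.49, neither called. Hoxd3, among the 5, was tested only through the embryonic arrays, as given above. Without both arrays that go against their labels, Hoxa5 fell too and Hoxa3 was not called. Hoxb3 was at 1.76, 1.86 and 1.00 at E11.5 and at 0.35, 0.32 and 0.23 at P7, a change of -1.24 ± 0.25 (limma adjusted p = 0.00482). Its probes changed by -2.05 and -0.44, and an older annotation names only the second Hoxb3, with which the change was -0.44 (adjusted p = 0.112). Hoxa2 was at 3.20, 3.37 and 2.84 and then at 1.71, 2.22 and 2.01, a change of -1.16 ± 0.32 (adjusted p = 0.0216). Hoxa4 was at 2.56, 1.97 and 2.04 and then at 1.51, 1.34 and 1.61, a change of -0.70 ± 0.17 (adjusted p = 0.0113).

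In each of these genes the E11.5 arrays lay above the P7 arrays without overlap. Hoxa3, needed for the thymus and parathyroid, was at 0.92, 0.57 and 0.86 and then at 0.33, 0.43 and 0.46, a change of -0.38 ± 0.12 (limma adjusted p = 0.0326). Its probes did not move alike, at -0.65 and -0.11, and Hoxa3 was called under 12 of 22 alternatives. Hoxd3 changed by -0.33 ± 0.10 (adjusted p = 0.0256), and the Cy5 signal of its brighter probe was at least 1.534-fold higher at E11.5 than at P7, where it was above background on no array, with the limit on its test given above. From the probe on the cluster's strand alone Hoxb2 was called too (-0.73 ± 0.22, adjusted p = 0.0285). Hoxd8 passed the threshold under every alternative tried for this comparison, and the count of members called was 3 without E11.5 replicate 1, 5 without E11.5 replicate 3, 4 without P7 replicate 1 and 5 without P7 replicate 3.

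**Figure D3:**
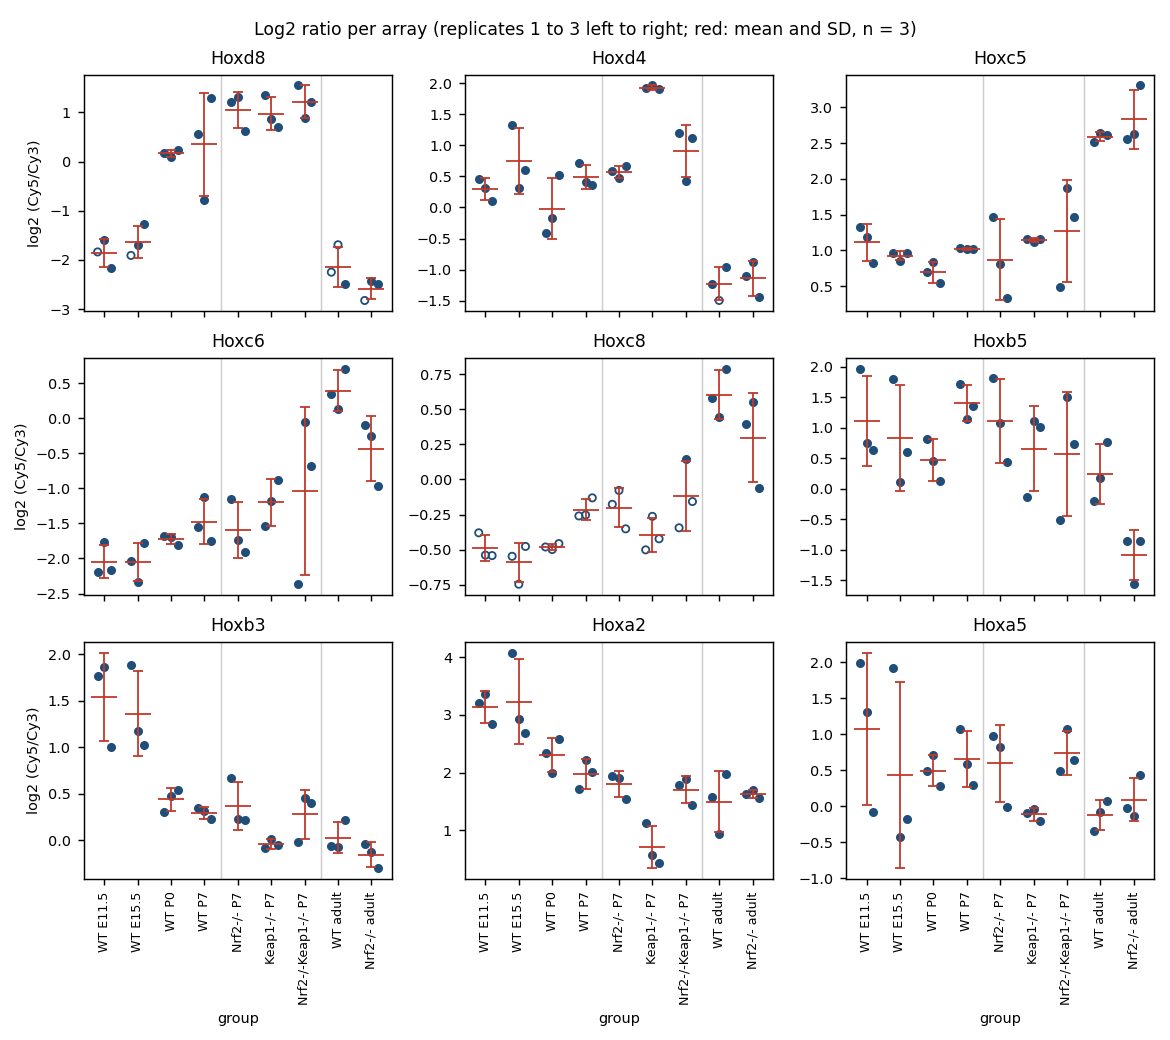
Log2 ratio to the reference RNA on every array for 9 Hox genes, by group (x axis). Filled points were well above background in Cy5, open points were not, and red lines are the group mean ± SD of 3 arrays; Hoxd8 is near -2 in embryos and adults and mostly above 0 at P0 and P7, and the group means of Hoxc5, Hoxc6 and Hoxc8 are highest in adults.

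Between E11.5 and E15.5, limma called no member, none at an unadjusted p of 0.05 or lower either, and no gene of the array was called (0%). Hoxb7 had the lowest p (adjusted p = 0.995). This comparison holds both arrays that go against their labels, and without them it changed most. Then 7 of the members fell, against 4.87% of all genes lower and 13.8% called in both directions together. Both arrays were set apart by these same ratios, so leaving them out favours calls in this step, and fewer arrays remain per age. Among the E11.5 arrays kept was replicate 2, on which Hoxb9 stood above the other arrays of its age, as given above. Among them were Hoxa5 (-1.96), Hoxb2 (-0.72), Hoxb3 (-0.71), Hoxb6 (-0.84), Hoxb7 (-0.94) and Hoxb9 (-1.02), with a median over the members of -0.30. Of these, Hoxa5 is needed for trachea and lung. Hoxa5 was at 2.00 and 1.31 on the E11.5 arrays kept and at -0.43 and -0.18 on the E15.5 arrays kept, while the arrays left out were at -0.08 (E11.5 replicate 3) and 1.93 (E15.5 replicate 1).

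The other steps moved less when both arrays were left out. E15.5 to P0 then gave 3 calls, Hoxb3 (-0.66), Hoxd8 (1.66) and Hoxd9 (0.80), against 19.5% of all genes, 10.6% higher and 8.85% lower. E11.5 to P7 gave 9 calls against 40.6% of all genes (21.6% higher, 19% lower), among them Hoxa2 (-1.31), Hoxa4 (-0.77), Hoxa5 (-1.0), Hoxb2 (-0.51), Hoxb3 (-1.52) and Hoxd3 (-0.35) lower, and Hoxd8 (2.07) and Hoxd9 (0.54) higher. Hoxa3 and Hoxc6 were no longer called. Over the 4 ages, 14 members changed against 45.8% of all genes.

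From P0 to P7 no member was called by limma, 2 had an unadjusted p of 0.05 or lower, and 2.43% of all genes were called. Hoxb6 had the lowest p, at -1.01, -1.10 and -1.23 at P0 and at -0.49, -0.32 and -0.47 at P7, a difference of 0.69 (adjusted p = 0.217). Its groups did not overlap, and without both embryonic arrays the same difference passed the threshold (adjusted p = 0.00529), against 5.58% of all genes, 2.85% higher.

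Between P7 and adult epithelium Hoxc5 and Hoxc6 rose and Hoxd4, Hoxd8, Hoxb5, Hoxa5 and Hoxb2 fell. Of 23 members tested, 9 were called by limma (39.1%), 4 higher and 5 lower in adults, against 43% of all genes, 20% higher and 23% lower. The median change was -0.23 among members and 0.01 among all genes. All 9 were without overlap between the 3 P7 and the 3 adult arrays. Whole wall was compared with epithelium here, and values for the other tissues of the wall follow below. Stomach markers were also higher on 2 of the 3 P7 arrays than in adults, as given above.

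Hoxc5 was at 1.04, 1.02 and 1.02 at P7 and at 2.52, 2.64 and 2.61 in adults, and rose by 1.56 ± 0.11 (limma adjusted p = 6.28e-05). Hoxc6, at -1.55, -1.12 and -1.75 and then at 0.34, 0.12 and 0.70, rose by 1.86 ± 0.21 (adjusted p = 0.000512). Hoxc8, a gene of the brachial spinal cord and thorax, was at -0.26, -0.25 and -0.13 at P7, above background on none of these arrays, and at 0.58, 0.44 and 0.79 in adults, above background on all 3. Its difference was 0.82 ± 0.13 (adjusted p = 0.00229), and in Cy5 alone it was at least 1.9-fold higher in adults. Hoxc8 was tested only through the 3 adult arrays on which it was above background, which favours a call. These 3 genes are neighbours, and their probes lie on chromosome 15 at chr15:102846969-102847028 (Hoxc5), chr15:102842033-102842093 (Hoxc6) and chr15:102823363-102823422 (Hoxc8) in mm9.

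The Hoxc genes on either side were tested as well and were not called in the ratio, with differences of 0.30 for Hoxc4 (adjusted p = 0.0702) and 0.44 for Hoxc9 (adjusted p = 0.0602). In Cy5 alone both were called, with 0.36 for Hoxc4 (adjusted p = 0.0377) and 0.92 for Hoxc9 (adjusted p = 0.00511). Hoxa7 was at -1.48, -1.59 and -2.04 and then at -1.11, -1.27 and -0.75, and rose by 0.66 ± 0.20 (limma adjusted p = 0.0307). A few spots of the arrays with a very high local background, no Hox spot among them, took the array's median background here; where they kept their own, Hoxc5 differed by 0.18 (adjusted p = 0.849). With arrays centred on their median in place of loess, Hoxc8 differed by 0.28 (adjusted p = 0.238).

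Hoxd8 fell from 0.56, -0.78 and 1.29 at P7 to -2.25, -1.69 and -2.49 in adults, a change of -2.50 ± 0.49 (limma adjusted p = 0.00549). Above background in Cy5 on all 3 P7 arrays, it was so on 1 of the 3 adult arrays. Hoxd4 was at 0.71, 0.40 and 0.36 and then at -1.23, -1.50 and -0.96, a change of -1.72 ± 0.17 (adjusted p = 0.000314). Hoxb5 was at 1.72, 1.15 and 1.35 and then at -0.21, 0.18 and 0.76, a change of -1.16 ± 0.26 (adjusted p = 0.0101). Hoxa5 was at 1.07, 0.59 and 0.30 and then at -0.34, -0.09 and 0.07, a change of -0.77 ± 0.21 (adjusted p = 0.0230), and Hoxb2 changed by -0.75 ± 0.18 (adjusted p = 0.0137), or by -0.95 ± 0.19 from the probe on the cluster's strand alone (adjusted p = 0.00587). Where the spots of very high local background kept it, the changes of Hoxd8 and Hoxd4 were -1.14 (adjusted p = 0.223) and -1.09 (adjusted p = 0.0873), no longer called. In the reference channel 15.5% of genes also differed between the P7 and adult arrays, 2 members among them, Hoxd8 (0.43) and Hoxc9 (0.47). In Cy5 alone 13 members were called, all 9 of the above included, with Hoxd8 at -2.07, Hoxd4 at -1.91, Hoxc5 at 1.89 and Hoxc6 at 1.93. The other 4 were Hoxc4, Hoxc9, Hoxa9 (-0.43) and Hoxb4 (-0.57).

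**Figure D4:**
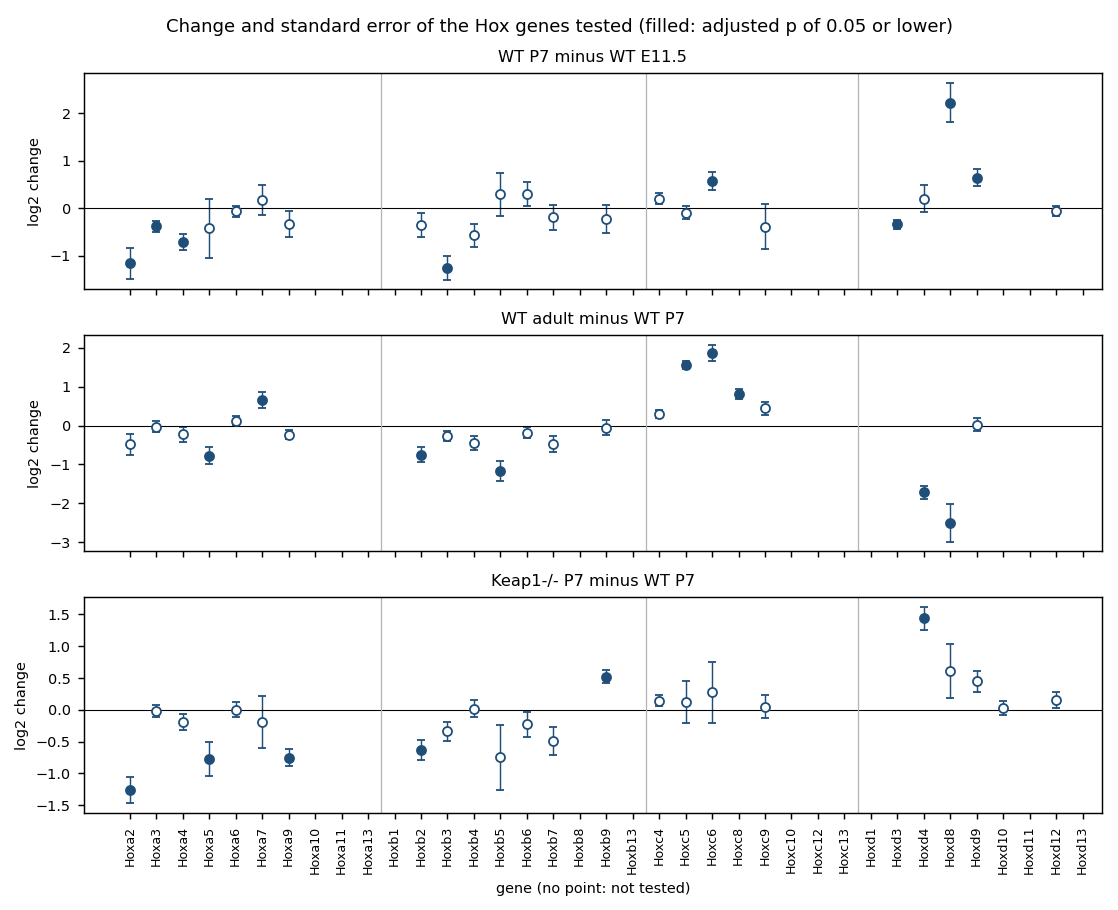
Log2 change of the tested Hox genes shown with its standard error for E11.5 to P7, P7 to adult and Keap1-/- against wild type at P7, by cluster and number; filled points are members called at an adjusted p of 0.05 or lower. From P7 to adult Hoxc5, Hoxc6 and Hoxc8 lie above 0 and Hoxd4 and Hoxd8 lie furthest below it.

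Markers of the wall moved with this comparison. The 10 mesenchyme and fibroblast markers averaged 1.16 at P7 (arrays 0.97 to 1.27) and -0.47 in adults (-0.66 to -0.25), and 10 of 10 fell. Of the striated muscle markers, 8 of 8 fell, with means of 4.63 (4.27 to 4.84) and 0.84 (0.49 to 1.37). Of the smooth muscle markers, 5 of 8 fell (3.43 to 2.53), of the endothelial markers 5 of 5 (1.99 to 0.98), and of the enteric neuron and glia markers 6 of 6 tested (1.48 to 0.04). The 10 epithelial markers averaged 2.76 at P7 and 2.36 in adults, all above background in both groups, with 2 higher and 2 lower. None of the wall lists was at 0 throughout in adults: 9 or 10 of 10 mesenchymal and 7 of 8 striated muscle markers stayed above background. The part of these tissues in the Hox changes was not tested. Hoxd8 also rose from E11.5 to P7. There the striated muscle markers rose, 8 of 8, as did 5 of 10 epithelial markers, and 4 of 10 mesenchymal markers fell (median -0.04). No smooth muscle or endothelial marker was called, with medians of 1.31 and 0.30. Of 7 enteric neuron and glia markers 1 rose and 2 fell. The part of these tissues in the rise of Hoxd8 was not tested either.

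Genes that act with or upon Hox genes also differed between P7 and adult, where 43% of all genes were called, 20% higher and 23% lower, with a median of 0.01. Here too whole wall was compared with epithelium, and the part of the wall tissues in these changes was not tested. Of 9 TALE cofactors, 6 fell and none rose, with a median of -0.44: Meis2 (-1.85 ± 0.26), Meis3 (-0.56 ± 0.16), Pbx2 (-0.48 ± 0.13) and Pknox1 (-0.47 ± 0.11) among them. Of 16 retinoic acid pathway genes tested, 6 rose and 7 fell, with a median of 0.18. Crabp2, which carries retinoic acid to the nucleus, rose by 4.13 ± 0.18, and the receptor Rxrg (-3.89 ± 0.32) and the retinoic acid-making enzyme Aldh1a3 (-3.73 ± 0.22) fell. Of 17 Polycomb genes 4 rose and 5 fell with a median of 0.01, among them Cbx7 (1.56 ± 0.23) upward and Cbx6 (-1.63 ± 0.12) and the methyltransferase Ezh2 (-0.96 ± 0.12) downward. Of 10 Trithorax genes 1 changed, the histone demethylase gene Kdm6b (-0.67 ± 0.13). Of 7 genes beside the clusters, Evx2, next to Hoxd13, rose by 0.88 ± 0.18 and Cbx5, next to the Hoxc cluster, fell by 0.76 on the log2 scale. Gsx1 (0.98 ± 0.13) was the only tested gene of 6 Cdx and ParaHox genes.

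Between E11.5 and P7, 30.2% of all genes were called with all arrays, 16.8% higher and 13.4% lower. The listed genes here and in the next paragraph are given with all arrays only, those that go against their labels included. Of 9 TALE cofactors 2 fell, Pbx2 (-1.37 ± 0.31) and Meis3 (-0.57 ± 0.15). Of 17 retinoic acid genes 4 rose, led by Rxrg (2.45 ± 0.29) and Aldh1a3 (2.21 ± 0.69), and 2 fell, Cyp26a1 (-3.09 ± 0.52), which breaks retinoic acid down, and Crabp2 (-0.96 ± 0.20). Of 17 Polycomb genes 7 fell and 2 rose, with a median of -0.29, among them Ezh2 (-0.99 ± 0.19), Rnf2 (-0.89 ± 0.20), Cbx2 (-0.87 ± 0.24) and Cbx7 (0.88 ± 0.30). Ash2l (-0.43 ± 0.15) was the 1 Trithorax gene called of 10. Beside the clusters, Cbx5 fell (-1.11 ± 0.18) and Skap2 rose (0.91 ± 0.23). No Cdx or ParaHox gene was called.

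Within that span, the step from E15.5 to P0, with 19.7% of all genes called, held 5 called retinoic acid genes of 17, 3 higher and 2 lower, among them Cyp26a1 (-2.44 ± 0.52), Rxrg (1.55 ± 0.29), Dhrs3 (1.39 ± 0.31) and Crabp2 (-0.88 ± 0.20). It held 1 higher and 3 lower Polycomb genes of 17, Ezh1 (0.72 ± 0.11), Ezh2 (-0.86 ± 0.19), Bmi1 (-0.68 ± 0.21) and Suz12 (-0.39 ± 0.12), and 1 lower TALE gene of 9, Pbx4 (-0.64 ± 0.15). From P0 to P7 the only call in these lists was Rdh10 (-0.75 ± 0.12), an enzyme that makes retinaldehyde.

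At P7 the genotypes were compared with the same 3 wild-type arrays, so the following comparisons share their controls. In Nrf2-/- esophagus no Hox gene was called of 24 by limma, 3 had an unadjusted p of 0.05 or lower, and 0.0157% of all 19063 genes were called. Hoxd10 had the lowest p, at -0.21, -0.41 and -0.26 in wild type, above background on none, and at 0.25, -0.03 and 0.04 in Nrf2-/-, above background on 2 arrays (difference 0.38, adjusted p = 0.388). No TALE, retinoic acid, Polycomb or Trithorax gene was called either. The targeted gene lies 910 kb from the Hoxd cluster in GRCm38.p6 with 3 protein-coding genes between, and among the genes near it Rbm45 rose by 2.64 ± 0.10 (adjusted p = 2.38e-07) while no Hoxd gene was called.

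In Nrf2-/-Keap1-/- esophagus 0 of 24 members were called by limma, 6 had an unadjusted p of 0.05 or lower, and 0.43% of all genes were called. Hoxb2 had the lowest p, at 1.17, 1.26 and 1.02 in wild type and at 0.42, 0.94 and 0.49 in the double mutant (difference -0.54, adjusted p = 0.126; -0.46 from the probe on the cluster's strand). In adult epithelium, Nrf2-/- against wild type also gave 0 of 24, with 4 at an unadjusted p of 0.05 or lower and 0.499% of all genes called. There Hoxb5 had the lowest p, at -0.21, 0.18 and 0.76 in wild type and at -0.85, -1.56 and -0.86 in Nrf2-/-, without overlap (difference -1.34, adjusted p = 0.102). Genotype and scan overlapped little in adults: within the scan that held both, Hoxb5 was at 0.76 in wild type and at -0.85 and -1.56 in Nrf2-/-, and with scan as a block 0 members were called. The test of whether the effect of Nrf2 differed between adults and P7 gave 0 of 25, 1 of them at an unadjusted p of 0.05 or lower, against 0.098% of all genes. That member was Hoxd9 (-0.57, adjusted p = 0.395).

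Keap1-/- esophagus at P7 differed from wild type in 7 of 24 members by limma (29.2%), 2 higher and 5 lower, against 33.3% of all genes, 15.4% higher and 17.9% lower. The median was -0.01 among members and -0.02 among all genes. On these 3 arrays, however, the reference channel itself differed. Cy3 intensity, from the same kind of reference RNA on every array, differed between Keap1-/- and wild-type arrays at 64.4% of genes and at 17 of the 24 members, against 0.0839% for Nrf2-/- and 1.55% for Nrf2-/-Keap1-/-. A change of ratio on these arrays can come from either channel, so called members are given in the ratio and in Cy5 alone.

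Hoxa2, Hoxa9 and Hoxb2 fell in both. Hoxa2 was at 1.71, 2.22 and 2.01 in wild type and at 1.13, 0.58 and 0.43 in Keap1-/-, a change of -1.27 ± 0.20 (limma adjusted p = 0.00102), and of -1.11 in Cy5 alone (adjusted p = 0.00383). Hoxa9, known for its part in blood progenitors, was at 0.74, 0.61 and 0.77 and at -0.24, -0.03 and 0.11, a change of -0.75 ± 0.13 (adjusted p = 0.00172), and of -1.16 in Cy5 alone (adjusted p = 0.000165). Hoxb2, a hindbrain gene, was at 1.17, 1.26 and 1.02 and at 0.56, 0.66 and 0.33, a change of -0.63 ± 0.15 (adjusted p = 0.00966), and of -0.88 in Cy5 alone (adjusted p = 0.00167). Its probe on the cluster's strand changed by -0.90 ± 0.17 in the ratio (adjusted p = 0.00277) and the one on the opposite strand by -0.37. None of the 3 overlapped between genotypes in the ratio. In Cy3 alone Hoxa9 (-0.41) and Hoxb2 (-0.24) fell too, and Hoxa2 rose (0.16), all called. The part of this shift in their Cy5 values was not tested. With arrays centred on their median in place of loess, Hoxa9 changed by -0.35 (adjusted p = 0.133) and Hoxb2 by -0.26 (adjusted p = 0.232).

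Hoxa5 was lower in the ratio and not called in Cy5 alone. It was at 1.07, 0.59 and 0.30 and at -0.10, -0.04 and -0.21, a change of -0.77 ± 0.27 (adjusted p = 0.0458), and of -0.60 in Cy5 alone (adjusted p = 0.0859).

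Hoxd4 and Hoxb9, the 2 members higher in the ratio, were not higher in Cy5 alone. Hoxd4 was at 0.71, 0.40 and 0.36 in wild type and at 1.92, 1.97 and 1.90 in Keap1-/-, a difference of 1.44 ± 0.18 (limma adjusted p = 0.000214). Its Cy3 signal was at 8.99, 9.04 and 9.0 (log2 intensity) on the wild-type arrays and at 7.11, 7.21 and 7.13 on the Keap1-/- arrays, a difference of -1.86 (adjusted p = 1.74e-09). In Cy5 it was at 9.71, 9.45 and 9.36 and at 9.03, 9.18 and 9.03, a difference of -0.42 (adjusted p = 0.123). The reference channel thus differed more than the sample channel, and the sample channel had the opposite sign to the ratio. Hoxb9 was at -2.35, -2.32 and -2.58 and at -1.77, -1.98 and -1.93 (0.52 ± 0.10, adjusted p = 0.00262), with -0.89 in Cy3 and -0.37 in Cy5 (adjusted p = 0.0187). The probes of Hoxb9 disagreed as well, at 1.15 and -0.11.

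**Figure D5:**
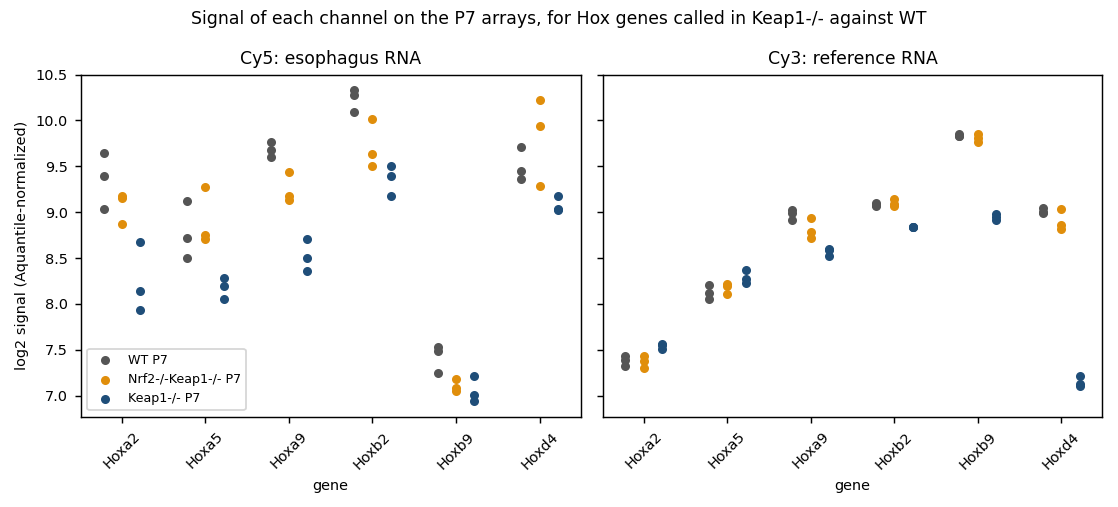
Log2 signal, scaled between arrays, of 6 called Hox genes on the wild-type, Nrf2-/-Keap1-/- and Keap1-/- arrays at P7, in Cy5 (esophagus RNA) and in Cy3 (reference RNA), 1 point per array. Hoxa2, Hoxa9 and Hoxb2 are lower in Cy5, while Hoxd4 and Hoxb9 are lower in Cy3 by more than in Cy5.

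In Cy5 alone 6 members were called, 4 of them also called in the ratio: Hoxa2, Hoxa9 and Hoxb2 lower in both, and Hoxb9, whose sign turned. The other 2 were Hoxb6 (-0.59, adjusted p = 0.0417) and Hoxd8 (1.39, adjusted p = 0.0320). Both differed in Cy3 in the same direction, Hoxb6 by -0.36 and Hoxd8 by 0.78. In the ratio, Hoxd8 was at 0.56, -0.78 and 1.29 in wild type and at 1.35, 0.87 and 0.70 in Keap1-/-, which overlap. The mesenchyme markers averaged 0.22 in Keap1-/- (0.10 to 0.37) against 1.16 in wild type, with 7 of 10 lower in the ratio, and 5 of 8 smooth muscle markers were lower and 1 higher. The epithelial markers averaged 1.98 against 2.76, with 4 of 10 lower and 1 higher, and 3 of 4 leukocyte markers tested were lower. Of 8 striated muscle markers 2 were higher and 1 lower. In the enteric neuron and glia list 1 of 6 tested was higher, and in the endothelial list 1 of 5. Their part in the Hox values was not tested. Stomach markers differed among the P7 arrays: they averaged 3.66, 1.52 and -0.05 in wild type, 0.03, -0.04 and 0.05 in Keap1-/-, 1.36, -0.05 and 0.18 in Nrf2-/- and 0.06, 3.35 and 0.03 in Nrf2-/-Keap1-/-.

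The other lists, measured by the same ratio on the same arrays, stand beside 33.3% of all genes called, 15.4% higher and 17.9% lower. For these genes, as for the markers above, Cy5 alone is not given, so a change can come from either channel. They gave 2 higher and 5 lower of 9 TALE cofactors (Meis2 -1.40 ± 0.21, Pknox1 -0.79 ± 0.14, Pbx4 0.52 ± 0.14). Of 17 retinoic acid genes 3 were higher and 6 lower, with Cyp26b1, which breaks retinoic acid down, at 4.37 ± 0.43, Aldh1a1 at 2.84 ± 0.38, Aldh1a3 at -2.01 ± 0.21 and Aldh1a2 at -1.52 ± 0.27. Of 17 Polycomb genes 3 were higher and 6 lower, with Ezh2 at -1.15 ± 0.17, Rnf2 at -0.77 ± 0.15, Cbx6 at -0.75 ± 0.14 and Bmi1 at -0.75 ± 0.14. Kdm6b (0.79 ± 0.15) was higher, and Skap2, beside the Hoxa cluster, was lower (-0.73 ± 0.21). In Nrf2-/-Keap1-/- esophagus and in adult Nrf2-/- epithelium none of these genes was called.

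Whether loss of Keap1 acted differently with and without Nrf2 was tested as an interaction. It was called for 3 of 24 members (12.5%), 1 higher and 2 lower, against 15.1% of all genes, 7.94% higher and 7.16% lower. For Hoxa2 the effect of losing Keap1 was 1.17 ± 0.29 higher in mice without Nrf2 (limma adjusted p = 0.0214), and in Cy5 alone it was 0.98 and not called (adjusted p = 0.0686). Hoxa2 was at 1.94, 1.91 and 1.54 in Nrf2-/- and at 1.78, 1.88 and 1.44 in Nrf2-/-Keap1-/-, which overlap, while the Keap1-/- arrays with Nrf2 lay under all of these. For Hoxb9 (-0.64 ± 0.14, adjusted p = 0.0119) and Hoxd4 (-1.10 ± 0.25, adjusted p = 0.0159) the interaction had the opposite sign in Cy5 alone, at 0.24 and 0.70. In Cy5 alone the interaction was called for other members, Hoxa9 (0.67, adjusted p = 0.0444) and Hoxb2 (0.79, adjusted p = 0.0376). All 5 rest on the Keap1-/- arrays, whose reference channel differed.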

How the data were processed

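Members and gene lists were chosen with earlier results of these data known. RNA of 27 esophageal samples was hybridized in Cy5 against reference RNA in Cy3 on Agilent arrays, and per the labels and the study's methods each group held 3 samples. The authors deposited, per array, the spot and local background intensities of Feature Extraction (10.5.1.1 and 10.7.3.1 in the file headers, 9.1 in the submitters' notes), and log10 ratios of Cy5 to Cy3, which matched the scanner files to within 0.00500 and were used as an alternative. The study's methods name a different scanner program.

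With limma 3.58.1 in R 4.3.3 (also data.table at version 1.17.8 and statmod at 1.5.0), mean spot intensities were corrected by normexp (offset 50) and normalized by loess within arrays. A spot whose local background was over 5 times its array's median took that median and was left out. No member spot was left out, and the 2.01% of member spots carrying an outlier mark were kept. Spots were averaged per probe and probes per gene. Testing a gene needed a probe whose Cy5 signal was well above background on 3 or more arrays of the fit, and 2 or more values per group. Fits covered the 12 wild-type arrays of 4 ages, P7 and adult wild type, the 4 genotypes at P7, the adults, and Nrf2 by age. Adjusted p-values are Benjamini-Hochberg over all genes tested, with a threshold of 0.05. Cy5 and Cy3 were also tested singly after normalization.

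Called members are named, but a few genes counted in the totals are not reported here. Values per array are given for up to 4 called increases and 4 decreases a comparison whose groups did not overlap, and the member of lowest p is named where none was called. Replicate numbers were not used to pair the samples in the main fits. Median intensity per array ran from 81.84 to 225.6 in Cy5 and from 114.8 to 385.7 in Cy3, and 58.86% to 69.33% of probes were above background in Cy5; the number of arrays limits the precision. The fit was tested on simulated data. There, 46% to 70% of the true changes of 1 on the log2 scale were called, depending on the comparison. Of true changes of 2, 86% to 96% were called. A member not called can therefore still have changed.

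The alternatives were other background, normalization, filter and probe rules, the deposited ratios, slide, scan and replicate number as blocks, Cy5 alone, all arrays in 1 fit, and each array left out. Keeping each spot's own local background, older probe names, and Hoxb2 without its opposite-strand probe were chosen after seeing the data.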

Additional observations from a re-analysis of the deposited data

Results flagged for a closer look

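The effect of losing Keap1 differed between mice with and without Nrf2, by the interaction term of limma, for Hoxa2 (1.17 higher without Nrf2, adjusted p = 0.0214), Hoxb9 (-0.64, adjusted p = 0.0119) and Hoxd4 (-1.10, adjusted p = 0.0159). In Cy5 alone Hoxb9 and Hoxd4 turned sign, Hoxa2 was not called (0.98, adjusted p = 0.0686), and Cy3 differed on the Keap1-/- arrays. The groups held 3 arrays each, so no single array was tested against the others of its group.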

How the results depend on the processing

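Of 280 recomputed counts of called members, 257 stayed within 1.5 times the reported count and 23 did not. Among the 257 are counts that stayed at 0, in comparisons without a called member, so the share says less of the comparisons with calls. Where spots of very high local background kept it, counts were 2 over the time course, 0 from E15.5 to P0, 2 from E11.5 to P7, 5 for Nrf2-/- adults and 1 for Nrf2 by age; no member spot was among those spots, and the cause was not tested. Median centring gave 5 from E11.5 to P7 and 4 from P7 to adult. All 27 arrays in 1 fit gave 12 over the time course, 10 from E15.5 to P0 and 1 for the interaction of Keap1 and Nrf2. Cy5 alone gave 1 for Nrf2-/- adults (Hoxc6, -0.77, adjusted p = 0.0352). Without both embryonic arrays that go against their labels, counts were 14 over the time course, 7 from E11.5 to E15.5 and 1 from P0 to P7.

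Leaving out 1 array at a time gave 4 to 10 over the time course (lowest without P0 replicate 1), 1 to 6 from E15.5 to P0 (lowest without P0 replicate 1, and 2 without P0 replicate 2, P0 replicate 3 or E15.5 replicate 1), 3 to 8 from E11.5 to P7, 6 to 10 from P7 to adult (lowest without adult replicate 1), 5 to 9 for Keap1-/-, 2 to 3 for the interaction and 0 to 0 elsewhere. Where that left a group with 2 arrays, limma pooled the spread over the groups of the fit, as it did in every fit. The replicate number as a block gave 7 over the time course, 4 from E15.5 to P0, 7 from E11.5 to P7, 7 from P7 to adult, 7 for Keap1-/-, 3 for the interaction and 0 elsewhere. For arrays of 1 number, the deviations had a median r of 0.096 over the wild-type ages (-0.454 to 0.644), against -0.046 for other pairs. Over the P7 genotypes the median was -0.081 (-0.363 to 0.356), against -0.003. The numbers were not used to pair samples in the main fits.

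Of 821 recomputed changes of named members, 701 kept direction and call, 111 kept direction and lost the call, 3 gained it and 6 turned sign. Those 6 were Hoxd4 in Cy5 alone (-0.42 for Keap1-/-, 0.70 for the interaction) and Hoxb9 in Cy5 alone (-0.37 and 0.24) and by its brightest probe (-0.11 and 0.0538). The cause was not tested.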

Other observations

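The Hoxc5 spot of E11.5 replicate 2 was bright in both channels. In Cy3 it was at 11.82 (log2 intensity), against 6.60 and 6.65 on the other E11.5 arrays, and the SD of Hoxc5 over the 3 arrays was 3.07 in Cy5 and 3.00 in Cy3. Its ratio, 1.18, lay between theirs of 1.33 and 0.83.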
